A study of Homo sapiens with 3 samples.

Results

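Of the genes that build focal adhesions, 10 were followed here, each found by its exact name among the 35851 rows of the deposited expression table: the integrin alpha subunits ITGA2, ITGA5 and ITGAV, the integrin beta subunits ITGB1, ITGB5, ITGB6 and ITGB8, the adaptors TLN1 (talin-1) and PXN (paxillin), and the focal adhesion kinase gene PTK2. All 10 genes were present. Poly(A) RNA had been sequenced from 5637 cells, an established human bladder cancer line labelled wild type, after lipid transfection of a control siRNA (siNC, 1 library) or of siRNA against the transcription factor gene MYBL2 (siMYBL2-1 and siMYBL2-2, 1 library each). The labels give neither the siRNA sequences nor whether -1 and -2 are different siRNAs. They also give neither the time of harvest nor whether the cultures were separate. The spread between the siMYBL2 libraries may therefore be technical or may hold differences between siRNAs, and these cannot be told apart. The design was made to find genes downstream of MYBL2 in bladder cancer.

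Integrins are receptors of paired alpha and beta chains that hold epithelial cells to the extracellular matrix. The beta 1 chain pairs with many alpha chains, among them alpha 2 (a collagen receptor), alpha 5 (a fibronectin receptor) and alpha v, whereas the beta 5, beta 6 and beta 8 chains pair with alpha v alone. Inside the cell, talin binds beta chain tails and links them to actin, paxillin is a scaffold of the adhesion plaque, and focal adhesion kinase signals from the site. Receptors containing beta 6 or beta 8 are known for releasing active TGF-beta from its latent complex.

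The stretches of sequence before the starts of ITGA2 and ITGB6 are shown because these are the integrins with the largest differences from siNC, in opposite directions. A shorter stretch around the start of ITGA5 is shown for the AP-1 motif it holds. All are RefSeq sequences of GRCh38.p14, printed 5′ to 3′ on the strand of the gene, from 250 bases before the RefSeq start up to the nearest exon of the gene in the deposited table, for ITGA2 (chr5:52989102-52989325, plus strand, 224 bases) and ITGB6 (chr2:160200314-160200522, minus strand, 209 bases). The deposited row of ITGB6 also holds exons farther upstream of this start. The ITGA5 stretch (chr12:54419256-54419282, minus strand, 27 bases) surrounds the site, which lies within the first exon as the deposited table has it. Capitals mark matches to the motifs named after the sequences.
ITGA2: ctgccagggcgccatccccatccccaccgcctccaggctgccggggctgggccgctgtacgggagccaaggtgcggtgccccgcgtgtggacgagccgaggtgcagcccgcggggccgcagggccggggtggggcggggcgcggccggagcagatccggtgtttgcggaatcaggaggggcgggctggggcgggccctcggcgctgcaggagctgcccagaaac
ITGB6: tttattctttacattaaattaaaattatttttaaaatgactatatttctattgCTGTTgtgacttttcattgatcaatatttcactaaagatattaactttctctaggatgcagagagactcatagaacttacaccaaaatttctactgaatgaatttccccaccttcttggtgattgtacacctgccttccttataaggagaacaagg
ITGA5: ctccccgcgtTGAGTCAttcgcctctg

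In all, 4 motifs were searched on both strands, the AP-1 motif TGANTCA, the TEAD motif GGAATG, the MYB core AACNG and the cell cycle element TTTGAA (CHR). RefSeq windows of 300 bases, from 250 bases before to 50 bases after a start, were used for 9 of the genes (14 windows). The window of ITGA5 was the only one of the 14 with the AP-1 motif, which 7.71% of all 35116 windows hold. The TEAD motif was found in 3 of the 14 windows (ITGA5, ITGB1 and PXN; 14.0% of all windows), the CHR in 3 (ITGAV, ITGB5 and PXN; 15.2%) and the MYB core in 10 (77.2%). ITGA2 held none of them, and the capitals in ITGB6 are a MYB core on the opposite strand. The window of ITGB6 had the lowest GC content of the 14, at 31.7% against a median of 69.8% over the 14 windows and 58.7% over all windows, and only 1.74% of all windows had less. A match is a match of letters and no evidence of binding, and a missing match says only that these letters are not in the window.

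Levels are in RPKM, which counts reads relative to exonic length and library depth, and 3 values in a row stand in the order siNC, siMYBL2-1, siMYBL2-2. MYBL2, the targeted gene, was at 211, 46.0 and 56.3 RPKM. Between 40259436 and 46177658 reads were assigned per library. All 10 epithelial and urothelial markers were above the filter, with summed levels of 2901, 3031 and 2402 RPKM. Of the markers of other cell types, 5 fibroblast genes summed to 1.37 to 2.04 RPKM, 4 endothelial genes to 0.0937 to 0.277 and 5 leukocyte genes to 3.64 to 5.49, nearly all of the last from CD68. PTPRC, which defines leukocytes, had no read in siNC and siMYBL2-1 and stood at 0.0129 RPKM in siMYBL2-2.

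The 10 genes covered a wide range of levels, and their order was much the same in the 3 libraries, as the plot of RPKM by gene shows. ITGB1 was first and TLN1 second in every library, and ITGA5 was last in every library. PTK2, ITGA2 and PXN came next, in changing order. ITGAV and ITGB5 followed and changed places between siNC and both siMYBL2 libraries, and ITGB6 and ITGB8 changed places in siMYBL2-1. ITGB1 ranked 504th by mean level among the 13274 genes tested, those whose mean RPKM over the 3 libraries reached 1. ITGA5, with a mean of 0.855 RPKM, was below that filter, so 9 of the 10 genes were tested.

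**Figure D1:**
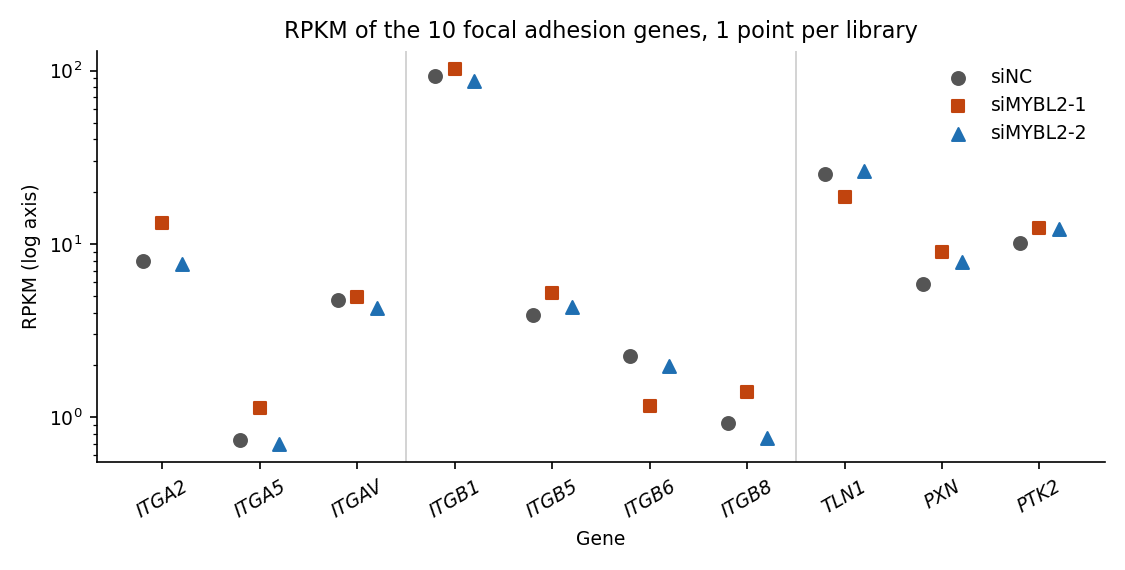
RPKM on a log axis of each of the 10 genes, 1 point per library (grey circles siNC, red squares siMYBL2-1, blue triangles siMYBL2-2), with the alpha subunits on the left, the beta subunits in the middle and the adaptors and kinase on the right. ITGB1 lies near 93.2 RPKM and ITGA5 near 0.741 RPKM in siNC, and the siMYBL2-1 point is the one that stands apart for ITGA2, ITGA5, ITGB6, ITGB8 and TLN1.

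No member passed the test of siMYBL2 against siNC. By limma on log2(RPKM + 1), with Benjamini-Hochberg adjustment over all 13274 genes, the adjusted p of the 9 tested members was 0.999 throughout, against 0.00753% of all genes called (1 gene). The unadjusted limma p lay between 0.144 and 0.958, so that 0 of 9 were under 0.05, against 4.71% of all genes. By limma-voom on the reads recovered from the RPKM values, 0 of 9 passed, against 10 of all 13274 genes. An unadjusted limma-voom p under 0.05 was found for 0 of 9, against 629 of all 13274. With so few members, counts of 0 are no result about them. MYBL2 itself, at a limma log2 change of -2.03, did not pass by limma (adjusted p 0.153) and passed by limma-voom (adjusted p 0.00811). A missing call by limma is therefore no evidence that a gene did not change. With 2 libraries against 1 the standard errors were 0.28 to 0.34 on the log2 scale. The standard errors and the 95% intervals given below draw mostly on the spread over all genes (1 residual degree of freedom, 10.2 after moderation).

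ITGA2, the alpha chain of the collagen receptor alpha 2 beta 1 (chromosome 5, 52989326 to 53094779, plus strand, hg38), stood at 7.91, 13.2 and 7.65 RPKM. Only siMYBL2-1 was high, and siNC lay inside the range of the siMYBL2 pair. The ratio to siNC was 1.66 in siMYBL2-1 (95% counting interval 1.58 to 1.75) and 0.967 in siMYBL2-2 (0.916 to 1.02). The counting intervals come from the recovered reads (2520 in siNC) and cover counting error only. By limma the log2 change was 0.31 (SE 0.34, 95% interval -0.45 to 1.08). ITGA2 differed 1.72-fold between the siMYBL2 libraries (1.64 to 1.80), more than either differed from siNC. In RNA from whole cultures, fewer cells with a transcript and less of it per cell cannot be told apart.

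ITGA5, the fibronectin receptor chain that pairs with beta 1 (chromosome 12, 54395261 to 54419460, minus strand), was the least abundant member, at 0.741, 1.12 and 0.703 RPKM, from 226, 355 and 246 reads. Its pattern had the same shape as that of ITGA2, with siMYBL2-1 high and siMYBL2-2 close to siNC. The ratio to siNC was 1.51 (1.28 to 1.79) in siMYBL2-1 and 0.949 (0.789 to 1.14) in siMYBL2-2, where the interval includes 1. ITGAV, the shared partner of the beta 5, beta 6 and beta 8 chains (chromosome 2, 186590065 to 186680901, plus strand), was at 4.74, 4.91 and 4.26 RPKM. Its ratios of 1.04 (0.966 to 1.11) and 0.899 (0.838 to 0.964) lay close to 1 on either side, and its limma log2 change was -0.04 (95% interval -0.68 to 0.59).

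ITGB1, the most abundant member (chromosome 10, 32900319 to 33005792, minus strand), was at 93.2, 101 and 87.5 RPKM, with a mean of 94.5 ± 9.83 (SD, n = 2) in the siMYBL2 libraries. The siNC value lay between them. With 22554 to 25500 reads per library the counting intervals were narrow (ratio 1.09, 1.07 to 1.11, in siMYBL2-1 and 0.939, 0.922 to 0.957, in siMYBL2-2), yet the libraries went in opposite directions. The limma log2 change was 0.02 (95% interval -0.64 to 0.67).

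The 3 beta chains that pair with alpha v alone had 3 different patterns. ITGB5, the chain of the vitronectin receptor alpha v beta 5 (chromosome 3, 124761948 to 124901418, minus strand), was at 3.90, 5.22 and 4.30 RPKM, and both siMYBL2 libraries were higher. The ratios were 1.34 (1.23 to 1.45) and 1.10 (1.01 to 1.20), and the limma log2 change was 0.23 (95% interval -0.42 to 0.87). ITGB6, an epithelial chain (chromosome 2, 160099666 to 160271888, minus strand), was the only member lower in both, at 2.25, 1.16 and 1.97 RPKM. The siMYBL2-1 library was far the lower of the pair, with ratios of 0.516 (0.448 to 0.593) and 0.878 (0.781 to 0.987). The limma log2 change of ITGB6 was -0.36 (SE 0.30, 95% interval -1.04 to 0.32). ITGB8 (chromosome 7, 20330702 to 20415754, plus strand) was at 0.919, 1.40 and 0.754 RPKM, high in siMYBL2-1 (ratio 1.52, 1.37 to 1.70) and low in siMYBL2-2 (0.821, 0.727 to 0.926). With a mean of 1.02 RPKM, ITGB8 was barely above the filter.

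**Figure D2:**
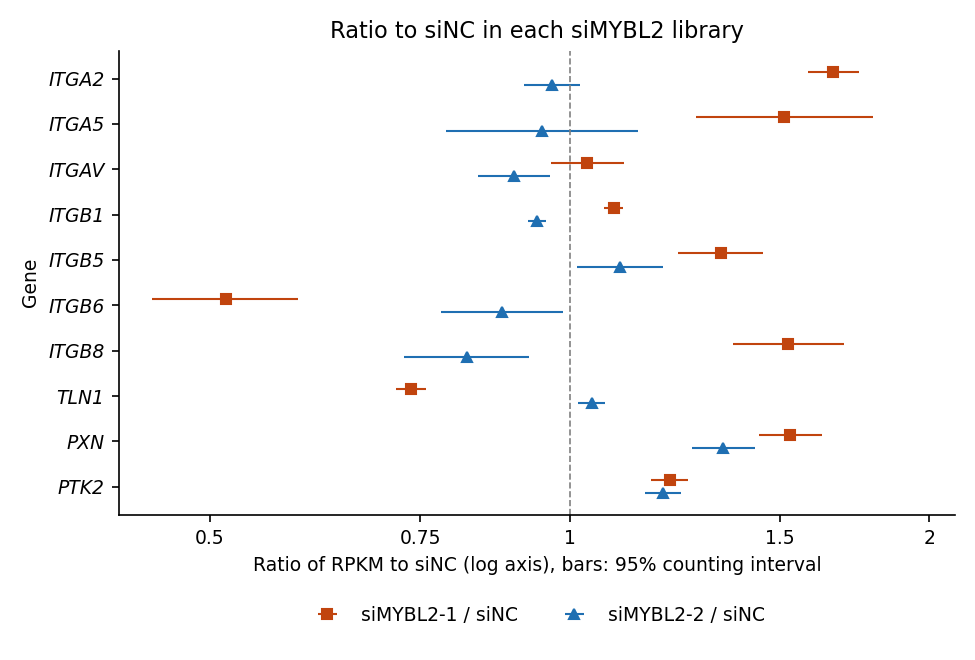
Ratio of RPKM to siNC on a log axis for each gene, with red squares for siMYBL2-1 and blue triangles for siMYBL2-2, bars for the 95% counting intervals and a dashed line at 1. Only PXN, PTK2 and ITGB5 have both points to the right of 1 and only ITGB6 has both to the left, with its siMYBL2-1 point at 0.516.

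PXN (paxillin) had the largest mean difference of the 10 on the log2(RPKM + 1) scale. The log2 change of ITGB6 was larger in size with a pseudocount of 0.1 (-0.54 against 0.51) and by limma-voom (-0.57 against 0.52). PXN was at 5.83, 8.92 and 7.85 RPKM, and both siMYBL2 libraries were above siNC by more than they differed from each other. The ratios were 1.53 (1.44 to 1.63) and 1.35 (1.27 to 1.43). The limma log2 change was 0.46 (SE 0.29, 95% interval -0.18 to 1.09, unadjusted p = 0.144), and 14.6% of all tested genes had a larger absolute change. The gene sits on chromosome 12 (120210439 to 120265771, minus strand, hg38), and 87.6% of its exonic sequence is free of any other row. Its antisense neighbour PXN-AS1 was at 5.41, 6.60 and 5.04 RPKM, and because the strand setting of the counting is not given in the sources used here, reads in the shared bases cannot be told apart. In each of the other members 97.5% or more was free of other rows.

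PTK2 (focal adhesion kinase; chromosome 8, minus strand) was the member on which the siMYBL2 libraries were closest. PTK2 was at 10.2, 12.3 and 12.2 RPKM, with a mean of 12.2 ± 0.108 (SD, n = 2) in the siMYBL2 libraries. The ratios were 1.21 (1.17 to 1.26) and 1.20 (1.16 to 1.24), and the ratio between the siMYBL2 libraries was 1.01 (0.980 to 1.05). The limma log2 change was 0.25 (95% interval -0.39 to 0.88). PXN and PTK2 were thus the only members whose siMYBL2 pair differed by less than the mean log2 ratio to siNC. For 7 of the 9 tested members the pair differed by more, as did 57.0% of all tested genes.

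TLN1 (talin-1; chromosome 9, 35696948 to 35732395, minus strand), second in level, was with ITGB6 one of 2 members lower than siNC in siMYBL2-1. TLN1 was at 25.3, 18.6 and 26.4 RPKM, and only siMYBL2-1 was low. The ratios were 0.737 (0.716 to 0.759) and 1.04 (1.02 to 1.07), and the limma log2 change was -0.18 (95% interval -0.88 to 0.52).

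Counted together, 3 of the 10 genes were higher than siNC in both siMYBL2 libraries (ITGB5, PXN and PTK2), against 29.7% of all tested genes, and 1 was lower in both (ITGB6), against 36.4%. Another 5 were higher in siMYBL2-1 and lower in siMYBL2-2 (ITGA2, ITGA5, ITGAV, ITGB1 and ITGB8; 4 of the 9 tested), against 15.6%, and TLN1 was the reverse, against 18.3%. In siMYBL2-1, 4 of 10 were at least 1.5-fold higher than siNC (ITGA2, ITGA5, ITGB8 and PXN; 3 of the 9 tested), against 11.2% of all tested genes, and ITGB6 was at least 1.5-fold lower, against 15.0%. In siMYBL2-2 no member was 1.5-fold higher or lower, against 4.91% and 8.63%. The median log2 ratio over the 10 genes was 0.27 in siMYBL2-1 and -0.04 in siMYBL2-2, beside -0.04 and -0.01 over all tested genes. Both ratios of a gene share the single siNC library.

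Among ITGB5, ITGB6, ITGB8 and ITGB3 (the beta chains that pair with alpha v and are not beta 1), ITGB6 made up 31.6% of the summed RPKM in siNC, 14.9% in siMYBL2-1 and 28.0% in siMYBL2-2. ITGB5 made up 54.9%, 67.1% and 60.9%, and ITGB8 12.9%, 18.0% and 10.7%, while ITGB3 was nearly silent at no more than 0.0339 RPKM. The summed level of these chains stayed within 7.06 to 7.78 RPKM. The ratio of ITGB5 to ITGB6 was 1.74, 4.51 and 2.18. With 1 siNC library these shares have no test.

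**Figure D3:**
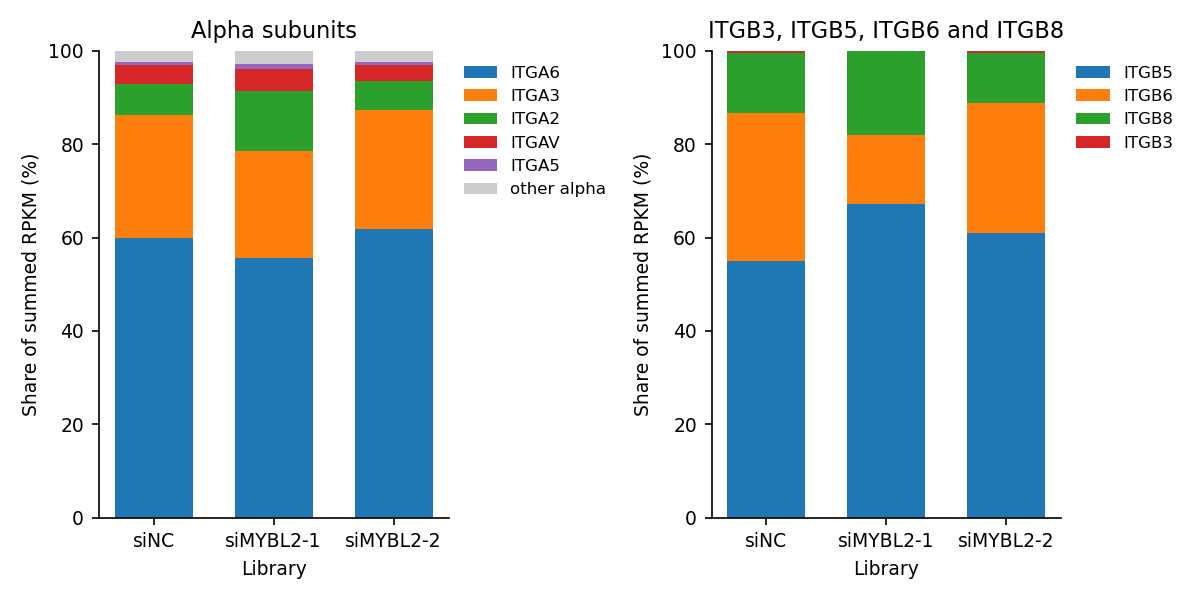
Shares of the summed RPKM of all alpha subunits (left) and of ITGB3, ITGB5, ITGB6 and ITGB8 (right) in each library, as stacked bars from 0 to 100%. In siMYBL2-1 the ITGA2 share of alpha subunits is 12.9%, against 6.67% in siNC, and the ITGB6 share on the right is 14.9%, against 31.6% in siNC.

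Among alpha subunits the members were a minority. ITGA6 and ITGA3, laminin receptor chains outside the 10 genes, held 59.9% and 26.3% of the summed alpha RPKM in siNC. ITGA2 held 6.67%, 12.9% and 6.29%, and ITGA5 0.625%, 1.10% and 0.578%. The ITGAV share lay between 3.50% and 4.82%. ITGA3 was at 31.2, 23.2 and 30.9 RPKM and ITGA6 at 71.1, 56.7 and 75.3, so both were low in siMYBL2-1, the library in which ITGA2 was high. ITGB1 held 75.5%, 77.8% and 69.6% of all beta chain RPKM, and ITGB4, the partner of alpha 6 in hemidesmosomes, 18.4%, 15.8% and 24.6%. Of the 14 other alpha subunits in the table, 11 were under 1 RPKM, among them ITGA4 and ITGAX, with 0 reads in every library (3 reads would be at most 0.0105 RPKM). ITGA8 was not analysed here.

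Of 38 other adaptors that tie integrins to actin, 26 were tested, and 14 of these were higher in both siMYBL2 libraries (29.7% of all tested genes), 5 lower in both (36.4%) and 7 in opposite directions (33.9%), with medians of 0.13 and 0.16. VCL (vinculin, which binds talin and actin) was at 6.64, 12.5 and 10.2 RPKM. SORBS2 was at 1.68, 4.37 and 3.03 RPKM. On the lower side were EVL, a promoter of actin filament growth, at 10.4, 7.23 and 6.60 RPKM, KANK2, a talin-binding protein, at 12.1, 9.28 and 8.81, and VASP, a relative of EVL, at 18.3, 15.0 and 18.2. VASP was level with siNC in siMYBL2-2 (ratio 0.996, counting interval 0.945 to 1.05). By limma 0 of 26 passed (lowest adjusted p 0.934), with unadjusted values under 0.05 for 3 of them (4.71% of all tested genes).

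Of 29 signalling genes around PTK2 and PXN, 26 were tested, with 9 higher in both libraries (29.7% of all tested genes), 9 lower in both (36.4%) and 8 in opposite directions (33.9%), shares near those of all genes, and medians of -0.03 and 0.02. CAV1 (caveolin-1) was at 15.4, 27.1 and 29.8 RPKM, the phosphatase gene PTPN11 at 18.4, 25.5 and 24.7, and RASA1, a RAS inhibitor, at 7.67, 11.9 and 9.45. ARHGAP26, whose product binds focal adhesion kinase, was at 1.60, 0.751 and 1.19 RPKM, the adaptor gene SHC1 at 6.06, 4.58 and 4.75, and PEAK1 at 1.94, 1.49 and 1.59. By limma 0 of 26 passed (lowest adjusted p 0.815), and CAV1 was the 1 gene under 0.05 before adjustment (4.71% of all tested genes).

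**Figure D4:**
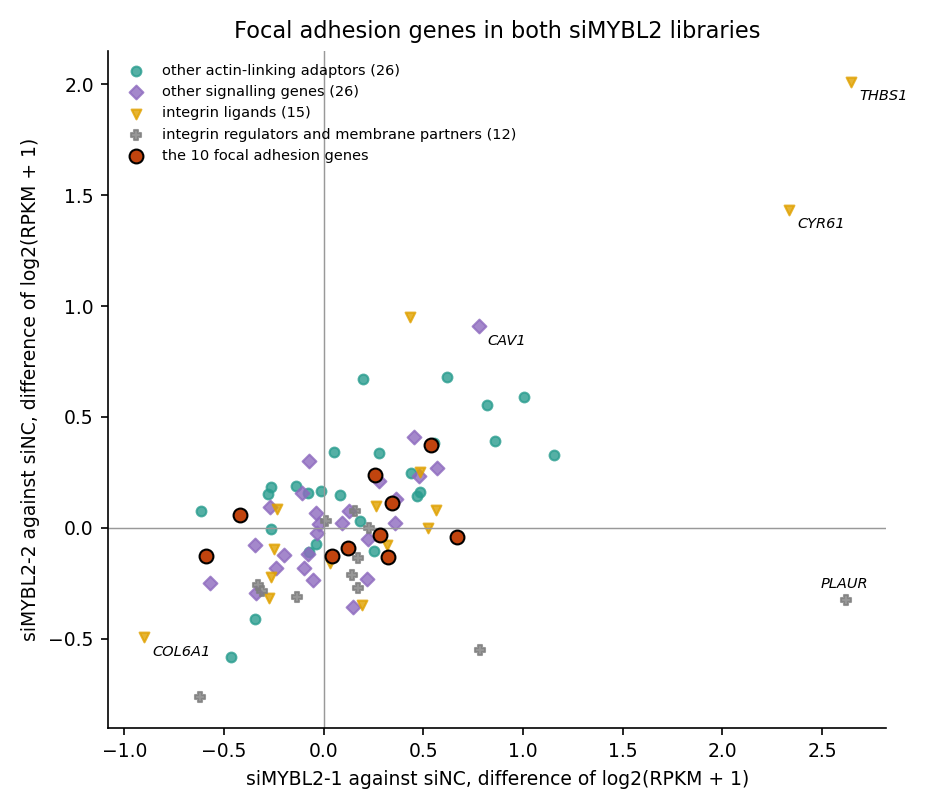
Difference of log2(RPKM + 1) from siNC in siMYBL2-1 (horizontal) and siMYBL2-2 (vertical), with 1 point per gene, for the 10 genes (red, outlined) and the tested genes of 4 related lists. The 10 genes spread horizontally from -0.59 (ITGB6) to 0.67 (ITGA2) and vertically from -0.13 (ITGB8) to 0.37 (PXN), while the ligand genes THBS1 and CYR61 (CCN1) lie far to the upper right.

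Of all genes in the related lists, the ligand genes THBS1 and CCN1 had the largest mean log2 ratios. THBS1 (thrombospondin-1) was at 4.80, 35.3 and 22.4 RPKM. CCN1, a matricellular ligand of alpha v integrins that the table lists as CYR61, was at 3.34, 20.8 and 10.7. CCN2 (CTGF in the table) was at 1.06, 1.78 and 2.98 RPKM, and on the lower side COL6A1 (a collagen VI chain) was at 2.47, 0.855 and 1.47, MFGE8, a ligand of alpha v beta 5, at 2.34, 1.76 and 1.68, and LAMA5 at 12.1, 9.93 and 10.2. Of 24 ligand genes 15 were tested, with 7 higher in both (29.7% of all tested genes), 4 lower in both (36.4%) and 4 in opposite directions (33.9%). Their medians were 0.26 and 0.00. By limma 0 of 15 passed (lowest adjusted p 0.153), with unadjusted values under 0.05 for 3 of them (4.71% of all tested genes). By limma-voom THBS1 did pass (adjusted p 0.00811), while CCN1 did not (adjusted p 0.134).

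Regulators and membrane partners of integrins had medians on opposite sides of 0 in the siMYBL2 libraries. Of 12 tested genes 3 were higher in both (29.7% of all tested genes) and 4 lower in both (36.4%). The other 5 were higher in siMYBL2-1 and lower in siMYBL2-2 (15.6%), and the medians of the list were 0.15 and -0.27. By limma 0 of 12 passed (lowest adjusted p 0.972), with an unadjusted value under 0.05 for 1 of them (4.71% of all tested genes). CD82, a tetraspanin that restrains integrin-dependent migration, was at 5.29, 3.10 and 2.71 RPKM (limma unadjusted p = 0.0350, adjusted p = 0.972), with CD9 at 13.9, 10.8 and 11.4 and the syndecan gene SDC1 at 49.7, 39.9 and 40.6 also lower in both. PLAUR, the urokinase receptor, which was picked out with its values in view, was at 67.1, 417 and 53.3 RPKM, the widest gap between the siMYBL2 libraries in this list. The 12 trafficking genes, all tested, held 3 higher in both (29.7% of all tested genes), 3 lower in both (36.4%) and 6 in opposite directions (33.9%). Their medians were -0.12 and 0.01. By limma 0 of these 12 passed (lowest adjusted p 0.999), with an unadjusted value under 0.05 for 0 of them (4.71% of all tested genes). MYO10, a myosin that carries integrins to filopodia, was at 11.9, 16.3 and 13.0 RPKM, and NUMB, an adaptor of integrin endocytosis, at 5.22, 3.63 and 5.04.

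The genes nearest to PXN in the pair of log2 ratios, among 6352 other genes of at least 5 RPKM, were RP11-42O4.2 (4.18, 6.48 and 5.67 RPKM), PRELID3B (15.8, 23.3 and 20.7) and E2F4 (8.61, 13.0 and 11.6). Their distances on the log2 scale were 0.010, 0.012 and 0.016. With only 3 libraries such likeness is common, and 81 genes lay within 0.1 of PXN.

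Of the 10 epithelial and urothelial markers, 2 were higher than siNC in siMYBL2-1 and lower in siMYBL2-2 (15.6% of all tested genes), as ITGA2 and ITGB8 were. Another 4 were higher in both (29.7%) and 4 lower in both (36.4%), and the medians over the 10 were 0.51 and -0.32. The first 2 were CDH1 at 14.8, 36.2 and 8.98 RPKM and EPCAM at 102, 177 and 71.8. The 4 lower in both were KRT5 (315, 176 and 230 RPKM), TP63 (14.5, 6.11 and 12.3), KRT17 (724, 558 and 497) and KRT19 (949, 800 and 716). KRT5 and TP63 were lowest in siMYBL2-1, as ITGB6 was, but KRT17 and KRT19 were lowest in siMYBL2-2. The 4 higher in both were KRT7, KRT8, KRT18 and GATA3. The part of these markers in the integrin values was not tested.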

How the data were processed

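The authors deposited 1 table of RPKM values with exon intervals and exonic lengths. The submitters' processing notes name cutadapt 1.9, HISAT2 2.0.4, StringTie 1.3.4d and the build hg38, without saying what each was used for. The counter, strand setting and annotation were not given in the sources used here. RPKM times length came out in whole steps in each library for 100% of values (tolerance 0.001 reads), and the steps gave the reads. RPKM is a share of assigned reads.

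The test was limma-trend (limma 3.58.1, R 4.3.3) on log2(RPKM + 1), which understates changes of low genes, for 13274 genes whose mean RPKM reached 1, with Benjamini-Hochberg adjustment and a threshold of 0.05. It has 1 residual degree of freedom (10.2 after moderation), and takes the spread of the siMYBL2 pair to hold for siNC too. The p-values measure only the spread between these libraries. Ratios are plain RPKM ratios with exact conditional binomial intervals (95%). The limma fit was also run on simulated data, with a spread set by hand, which does not show how it performs on these libraries. Members and lists were chosen with earlier results of these data known. Beyond the members, up to 3 tested genes per list and direction with the largest mean log2 ratio, of the same sign in both libraries, were eligible to be named, and CCN1 and CCN2 were matched by older symbols. ITGA6, ITGB3, ITGB4, ITGA4, ITGAX and single markers were named outside that rule, after their values were seen. ITGA8 and FAP were not analysed here. A gene that the naming rule selects is not reported here. No promoter window of PTK2 was analysed here. Alternatives were another pseudocount, other filters and scalings, robust moderation, limma-voom and leaving out each siMYBL2 library.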

Additional observations from a re-analysis of the deposited data

How the results depend on the processing

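Over 7 alternative settings, 0 members were called in each, with limma adjusted p-values between 0.755 and 1.00. The log2 changes kept their sign in all 60 refits of single members. Refits without a filter, with the filter at 5 RPKM or with robust moderation leave the log2 change unaltered, so their signs were fixed in advance. The count of genes called over the whole table, 1 by the main limma fit, was 0 without a filter, with a filter at 5 RPKM, with either other scaling and with robust moderation, and 10 by limma-voom; the cause was not tested. TMM factors, computed directly from the recovered reads, moved the median log2 ratio of the members from 0.27 to 0.31 in siMYBL2-1 and from -0.04 to -0.03 in siMYBL2-2. The counts of members higher (3) or lower (1) in both libraries were the same under both scalings. A pseudocount of 0.1 could not change these counts, because it leaves the direction of each single difference unaltered. Leaving out 1 siMYBL2 library leaves 1 against 1 and a value with no test. The sign then depends on the library left out for 6 members (ITGA2, ITGA5, ITGAV, ITGB1, ITGB8 and TLN1). The count-model fits planned on recovered reads were left out by choice, since the deposited unit is RPKM, and limma-voom on the recovered reads was run instead. No paired analysis was possible because siNC has a single library with no number of its own. The lowest depth, 226 reads for ITGA5 in siNC, gives the widest counting intervals relative to level.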
